A study of Mus musculus with 4 samples.

Results

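Cytosolic heat shock chaperones were followed in mouse liver as 8 genes, chosen by name as Hspa1a, Hspa1b, Hspa8, Dnajb1, Hsp90aa1, Hsp90ab1, Hspb1 and Hsph1. Of these, 7 genes had a probe set in the annotation of the array, out of 8251 named genes in all, and Hsp90ab1 was not analysed here. The 7 genes were covered by 8 probe sets, of which 6, for 6 genes, were bright enough to be tested among 7241 probe sets. The samples were livers of hepatic reductase null mice (null replicates 7 and 8) and of control mice (control replicates 7 and 8), with 1 Affymetrix MG_U74Av2 array each. The labels do not spell out the reductase. In the mouse line known by this name it is cytochrome P450 oxidoreductase, the electron donor of the microsomal P450 enzymes, which the line lacks in hepatocytes. The labels give no strain, sex, age or means of deletion, and no probe set of the annotation names the oxidoreductase, so the genotypes were not checked against it. Per the labels, RNA of 3 animals of a genotype was pooled for an experiment, whereas the control titles name a single mouse. What an array holds is therefore uncertain, and the p-values measure only the spread between these arrays.

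The heat shock chaperones bind unfolded or partly folded proteins in the cytosol and nucleus. HSP70 proteins hold and release short stretches of client protein in a cycle driven by ATP, J proteins such as Dnajb1 bring clients to HSP70 and start the cycle, and nucleotide exchange factors such as Hsph1 reset it. HSP90 acts later, on clients such as steroid receptors and kinases. Transcription of the inducible members is switched on by heat shock factor 1 (Hsf1), which binds inverted repeats of a short unit, the heat shock element, when unfolded protein accumulates.

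Hspa1a and Hspa1b, the inducible HSP70 genes, lie on chromosome 17 of the mouse genome (GRCm38.p6) at 34969359 to 34972156 and at 34956429 to 34959238, with 10.1 kb between them. Their promoter windows, 250 bases before to 50 after the transcription start in the RefSeq table, were the same at 296 of 300 bases (98.7%). They are printed because the probe sets of these genes had the highest folds between genotypes among the members, and that of Dnajb1 because it differed most between the null arrays. The window of Hsph1 is printed because it held the longest element. Capitals mark GAANNTTC or TTCNNGAA, a pair of facing units, which reads the same on either strand.
Hspa1b (chr17:34959189-34959488, minus strand): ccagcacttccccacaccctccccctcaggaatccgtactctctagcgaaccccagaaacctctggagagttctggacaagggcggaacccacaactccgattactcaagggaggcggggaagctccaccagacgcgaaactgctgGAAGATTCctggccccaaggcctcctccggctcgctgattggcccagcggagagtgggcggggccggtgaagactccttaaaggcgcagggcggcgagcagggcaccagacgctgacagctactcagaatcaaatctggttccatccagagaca
Hspa1a (chr17:34972107-34972406, minus strand): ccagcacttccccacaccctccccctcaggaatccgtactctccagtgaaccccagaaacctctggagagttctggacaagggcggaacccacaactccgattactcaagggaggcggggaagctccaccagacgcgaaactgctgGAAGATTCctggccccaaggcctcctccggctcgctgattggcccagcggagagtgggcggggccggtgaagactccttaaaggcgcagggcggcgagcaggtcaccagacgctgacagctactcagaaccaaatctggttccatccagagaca
Hsph1 (chr5:149636266-149636565, minus strand): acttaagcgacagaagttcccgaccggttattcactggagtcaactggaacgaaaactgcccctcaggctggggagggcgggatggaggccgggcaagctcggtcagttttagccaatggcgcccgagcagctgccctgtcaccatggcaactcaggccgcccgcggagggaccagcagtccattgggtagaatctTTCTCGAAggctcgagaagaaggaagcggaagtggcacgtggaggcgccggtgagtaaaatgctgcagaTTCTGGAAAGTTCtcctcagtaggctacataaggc
Dnajb1 (chr8:83607925-83608224, plus strand): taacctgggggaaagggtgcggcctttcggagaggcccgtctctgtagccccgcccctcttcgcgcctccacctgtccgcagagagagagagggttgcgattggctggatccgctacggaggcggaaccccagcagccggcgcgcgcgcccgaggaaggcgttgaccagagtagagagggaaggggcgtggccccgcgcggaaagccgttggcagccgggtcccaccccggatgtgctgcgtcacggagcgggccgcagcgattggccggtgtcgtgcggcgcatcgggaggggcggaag

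Promoter windows were found for 5 of the 8 genes, 7 windows in all. A facing pair occurred in the windows of 4 genes, Hspa1a, Hspa1b, Hspb1 and Hsph1. It was present for 17% of all 27025 genes of the table and in 15.1% of its 32851 windows. In Hspa1a and Hspa1b the pair lay at -104 to -97 from the start site. In the printed window of Hsph1, which encodes the large HSP110 partner of HSP70, 3 units in a row (TTCTGGAAAGTTC) lay at 16 to 28 after the start site, and another pair lay further upstream. A run of 3 units (GAANNTTCNNGAA or TTCNNGAANNTTC, each of which overlaps 2 pairs) was present in 0.603% of all windows. Neither window of Dnajb1 held the pair, which says only that these letters are not in the windows searched.

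The inducible HSP70 genes were brightest on null replicate 7. The Hspa1b probe set had signals of 429.5 on null replicate 7 and 158 on null replicate 8, against 62 on control replicate 7 and 147 on control replicate 8. Both null arrays lay above both control arrays, but null replicate 8 exceeded control replicate 8 only 1.07-fold. The mean was 293.75 ± 192 in null liver and 104.5 ± 60.1 in control liver (SD, n = 2 each). The log2 difference, null over control, was 1.45 ± 0.54 (SE, 2.73-fold) with a 95% interval of 0.17 to 2.73, and it did not pass over all probe sets in limma (adjusted p = 0.341). It came to 0.73 without null replicate 7 (adjusted p = 0.595), 0.83 without control replicate 7, 2.07 without control replicate 8 and 2.17 without null replicate 8. Markers of pancreatic acinar cells, given further on, were also high on null replicate 7, and their part in this value was not tested.

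The Hspa1a probe set was dimmer and showed the same order of arrays, at 71.4 and 47.7 on null replicates 7 and 8, against 21.6 and 33.4 on control replicates 7 and 8. The null arrays did not overlap the control arrays, and the lowest null signal was 1.43 times the highest control signal. Its log2 difference was 1.12 ± 0.34 (SE, 2.17-fold, 95% interval 0.32 to 1.92, adjusted p = 0.253 in limma). It was 0.83 without null replicate 7, where its adjusted p was 0.464, and with each array left out in turn it ran from 0.81 to 1.43. Because the genes are close copies, transcripts of either may bind both probe sets, and the share of each in a signal cannot be told apart here.

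Hspa8 (chromosome 9, 40801276 to 40805202) encodes the constitutive HSP70, Hsc70, which serves routine folding and the uncoating of clathrin vesicles. It had signals of 862.6 and 730.2 on null replicates 7 and 8, against 583.1 and 843.4 on control replicates 7 and 8. The groups overlapped, with control replicate 8 between the null arrays. The log2 difference was 0.18 ± 0.18 (SE, 95% interval -0.26 to 0.62, adjusted p = 0.743 in limma), and it turned to -0.09 without control replicate 7. It was 0.44 without control replicate 8, 0.30 without null replicate 8 and 0.06 without null replicate 7.

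Dnajb1 (chromosome 8, 83608175 to 83612653), the HSP40 J protein that is induced together with Hspa1a and Hspa1b in stressed cells, was high on 1 array alone. Its signal was 293 on null replicate 7 and 71.7 on null replicate 8, against 69 and 93.6 on control replicates 7 and 8. Null replicate 8 lay between the control arrays. The log2 difference was 0.85 ± 0.59 (SE, 95% interval -0.54 to 2.25, adjusted p = 0.6 in limma). It turned to -0.16 without null replicate 7 and was 1.87 without null replicate 8, so that 1 array decided its sign.

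Hsph1 (chromosome 5, 149616843 to 149636498) was the tested member whose arrays were closest within each genotype. Its signal was 239 and 235.4 on null replicates 7 and 8, against 136.7 and 159.2 on control replicates 7 and 8. Both null arrays stood at least 1.48 times above either control array. The log2 difference was 0.69 ± 0.15 (SE, 1.61-fold, 95% interval 0.33 to 1.04), the smallest p among the members, and it missed the threshold (adjusted p = 0.131 in limma). Leaving out 1 array at a time gave 0.58 to 0.80, and the adjusted p lay between 0.0896 and 0.535 over all alternatives.

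Hsp90aa1 (chromosome 12, 110691036 to 110696395), the stress-inducible cytosolic HSP90, ran against the HSP70 genes in its order of arrays. Its brighter probe set gave 338.7 on null replicate 7 and 471.2 on null replicate 8, against 338.8 on control replicate 7 and 273.7 on control replicate 8. Null replicate 7 was level with control replicate 7, and only null replicate 8 lay above both control arrays. The log2 difference was 0.39 ± 0.19 (SE, 95% interval -0.07 to 0.85, adjusted p = 0.464 in limma), with 0.15 without null replicate 8 and 0.63 without null replicate 7. A dim probe set of the same gene, below the limit for testing, gave 16.2 and 13.2 in null liver, against 9.2 and 8.5 in control liver. Those groups did not overlap, and its null arrays stood in the opposite order.

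Hspb1 (chromosome 5, 135887919 to 135889563) encodes HSP25, a small heat shock protein that holds unfolded clients without ATP and is abundant in muscle. Its signals were 2 and 1.9 on null replicates 7 and 8, against 2.3 and 6.6 on control replicates 7 and 8. All lay below the floor of 7.1, under which signals have no order, so no fold is given.

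**Figure D1:**
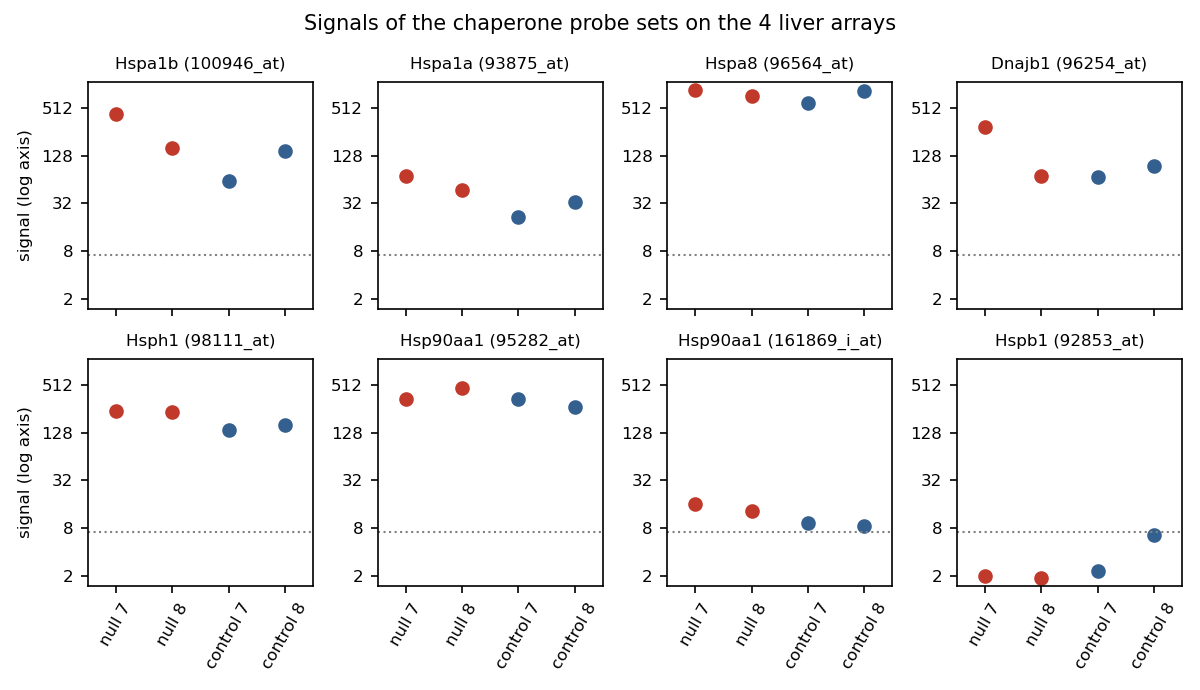
Signal of each chaperone probe set (log axis, array units) on null replicates 7 and 8 (red) and control replicates 7 and 8 (blue), 1 point per array, with the floor of 7.1 as a dotted line. Null replicate 7 stands out for Hspa1b (429.5) and Dnajb1 (293), the null arrays of Hsph1 are nearly equal (239 and 235.4), and Hspb1 is below the floor.

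All 6 tested chaperones had positive log2 differences, but none passed the test. Of the 6 tested member probe sets 0 rose and 0 fell in null liver over all probe sets in limma, where 0.304% of the 7241 probe sets rose and 0.0829% fell. At an unadjusted p under 0.05 there were 3 members with a higher signal, Hspa1a, Hspa1b and Hsph1, beside 6.16% of all tested probe sets. The same 3 had both null arrays above both control arrays, which was true of 20.4% of all tested probe sets. The median log2 difference was 0.77 over the 6 members, with 6 of 6 positive, and -0.01 over all tested probe sets, of which 48.9% were positive. The members share the arrays and a known regulator, so their directions are not separate observations.

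**Figure D2:**
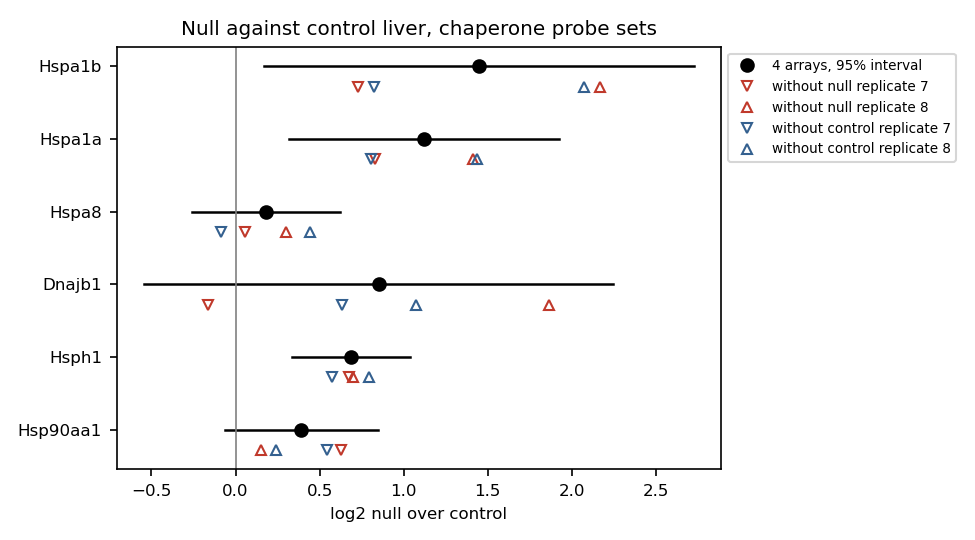
Log2 difference of null over control liver for the 6 tested chaperone probe sets, with all 4 arrays (black, line: 95% interval) and with each array left out in turn (open triangles). Hsph1 stays between 0.58 and 0.80, while Dnajb1 runs from -0.16 to 1.87 and Hspa8 from -0.09 to 0.44.

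The null arrays differed from each other in Dnajb1 and Hspa1b above all. Dnajb1 was 4.09-fold higher on null replicate 7 than on null replicate 8, a size met or exceeded, in either direction, by 0.925% of the tested probe sets. Hspa1b was 2.72-fold higher, a size met or exceeded by 2.87% of them. With 1 array on each side these differences have no replicate check. Of the 6 tested members 2 were thus more than 2-fold higher on null replicate 7, against 2.6% of all tested probe sets. On the log2 scale the difference of null replicate 7 over null replicate 8 was 0.58 for Hspa1a, 0.24 for Hspa8, 0.02 for Hsph1 and -0.48 for Hsp90aa1.

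The control arrays differed from each other in the same genes, by less than the null arrays in Hspa1b and Dnajb1 and by more in Hspa1a, Hspa8 and Hsph1. Hspa1b was 2.37-fold higher on control replicate 8 than on control replicate 7, the single member past 2-fold, where 2.53% of all tested probe sets were. The log2 difference of control replicate 7 over control replicate 8 was -0.63 for Hspa1a, -0.53 for Hspa8, -0.44 for Dnajb1 and -0.22 for Hsph1. Hsp90aa1 was again the exception, at 0.31. In each genotype, then, the array with more HSP70 and Dnajb1 signal was the one with less signal of the brighter Hsp90aa1 probe set. Over all tested probe sets the SD of the log2 difference was 0.55 between the null arrays and 0.47 between the control arrays.

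**Figure D3:**
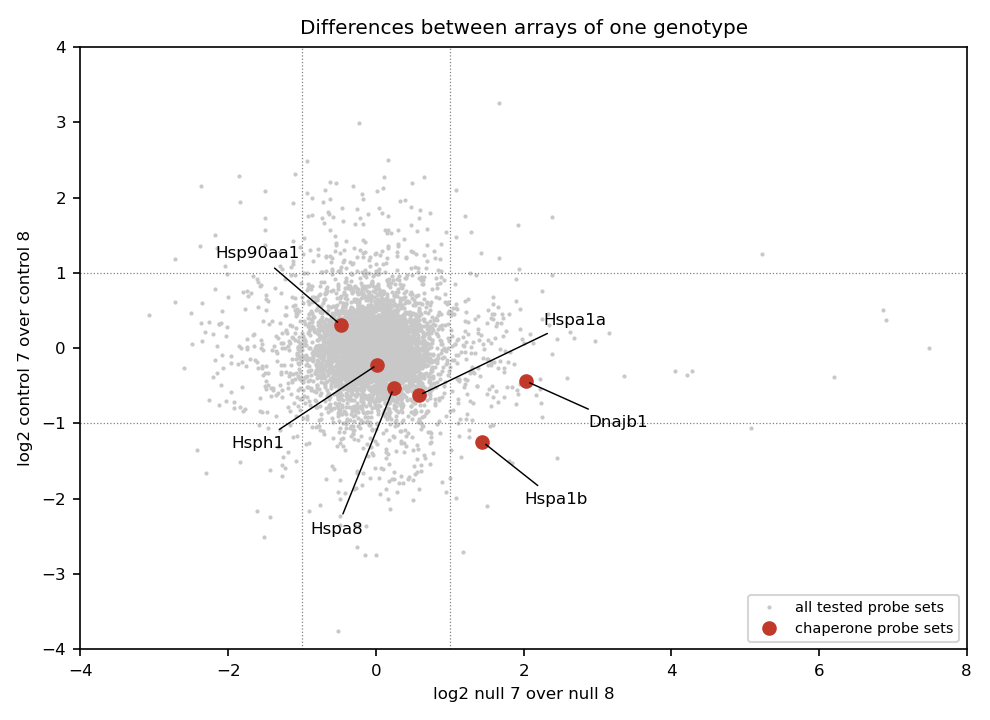
Log2 difference between the null arrays (horizontal axis) and between the control arrays (vertical axis) for all 7241 tested probe sets (grey) and the 6 tested chaperone probe sets (red), with dotted lines at 2-fold. Dnajb1 and Hspa1b lie past 2-fold to the right, and Hsp90aa1 is the one labelled gene with a negative difference between the null arrays (-0.48) and a positive one between the control arrays (0.31).

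Null replicate 7 also differed from null replicate 8 in immediate early genes and in pancreatic genes. Of 19 tested immediate early and acute stress genes, 4 were more than 2-fold higher on null replicate 7 and 0 were lower by as much, beside the 2.6% of all probe sets given above. Fos, a component of AP-1 that is transcribed within minutes of a stimulus, had 260.7 and 7.7 on null replicates 7 and 8, against 9.4 and 19.7 on control replicates 7 and 8. Without null replicate 7 its mean log2 signal would lie below the limit for testing. Egr1, another immediate early transcription factor, had 325.6 and 112.8, against 47.7 and 69.3. Jun, the AP-1 partner of Fos, did not share this order, with 84.4 and 97.8 in null liver, against 21.8 and 23.5 in control liver. Between genotypes 3 of the 19 rose over all probe sets in limma, Jun and the metallothioneins Mt1 and Mt2, and 0 fell, beside the 0.304% and 0.0829% of all probe sets given above. Of the 19, 14 had positive differences and the median was 0.82. At an unadjusted p under 0.05 there were 8 higher and 1 lower, where 12.6% of all tested probe sets lay in either direction. Atf3, a stress-induced transcription factor, came next, with 56.5 and 52.6 in null liver, against 16.5 and 21.3 in control liver (log2 1.54 ± 0.30, SE, adjusted p = 0.101 in limma). The call of Jun ended with any 1 array left out (adjusted p from 0.0824 to 0.217), that of Mt1 without null replicate 7 (0.0966) or null replicate 8 (0.158), and that of Mt2 without null replicate 8 (0.0518).

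Markers of pancreatic acinar cells were raised on null replicate 7 in 6 of 6 measured genes by more than 2-fold. Their summed signal was 2952.3 and 294.6 on null replicates 7 and 8, against 252.8 and 365.1 on control replicates 7 and 8. The digestive protease Ctrb1 stood at 1307.3 and 78.7 in null liver, against 58 and 71.8 in control liver. Whether these cells contributed to the Hspa1b and Dnajb1 signals of null replicate 7 was not tested.

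Other partners of HSP70 went both ways. Of 17 tested J proteins, exchange factors and further HSP70 proteins, 0 rose and 0 fell over all probe sets in limma, with 7 positive and 10 negative differences and a median of -0.11. At an unadjusted p under 0.05 there were 3 higher and 0 lower, beside the 12.6% of all tested probe sets in either direction. Dnaja1, a J protein of the cytosol, came closest, with 652.1 and 661.1 on null replicates 7 and 8, against 458.9 and 456.4 on control replicates 7 and 8 (log2 0.52 ± 0.10, SE, adjusted p = 0.1). Its arrays were closer within each genotype than those of Hsph1. The J protein genes Dnajb2 and Dnajb4 were also positive, with Dnajb2 at 0.52 ± 0.15 and Dnajb4 at 0.71 ± 0.24, while Hspbp1, an exchange factor of HSP70, was at -0.33 ± 0.14 (log2, SE). Bag3, an exchange factor that is itself a classical heat shock target, was at 0.04 ± 0.19, and Hspa4 (an HSP110 relative of Hsph1) at -0.12 ± 0.15 on the brightest of its 5 probe sets; these are named for their kinship with the members, after their values were seen. The probe sets of Hspa4 went both ways, with the other 4 at -0.27, 0.09, 0.11 and 0.60, and the dimmer one of Bag3 was at -0.19.

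Co-chaperones of HSP90 had more negative than positive differences. Of 10 tested genes 0 rose and 0 fell in limma (0 at an unadjusted p under 0.05, beside 12.6% of all tested probe sets, in either direction). There were 2 positive and 8 negative differences with a median of -0.11, where 48.9% of all tested probe sets were positive. Cdc37, which loads kinases onto HSP90, was at -0.27 ± 0.16, and the steroid receptor immunophilins Fkbp4 and Fkbp5 were at -0.17 ± 0.12 and -0.18 ± 0.16 (log2, SE). The phosphatase Ppp5c was at -0.35 ± 0.28. None of the 10 was more than 2-fold higher on null replicate 7, and 1 was more than 2-fold lower, as were 3.44% of all tested probe sets. The dimmer probe set of Fkbp4 differed in sign, at 0.03 ± 0.27. That of Chordc1 did too, at 0.14 ± 0.19, where the brighter was at -0.01 ± 0.17. The dimmer probe set of Sugt1 was at 0.44 ± 0.25, and the brighter at 0.03 ± 0.23.

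Of the small heat shock proteins besides Hspb1, 2 were tested and 0 passed in limma. At an unadjusted p under 0.05 there was 1, a higher one, beside 12.6% of all tested probe sets in either direction. Hspb8, which works with Bag3, had signals of 745.7 and 803.7 in null liver, against 604.3 and 634.8 in control liver, without overlap (log2 0.32 ± 0.10, SE, adjusted p = 0.268 in limma), and Hspb2 was at -0.07 ± 0.29. No probe set in the annotation names Hsf1. Hsf2 lay below the floor on all 4 arrays, with signals of 2.5 and 3.5 in null liver, against 1.5 and 2.8 in control liver. Hsf4, a factor known from the lens, had 3.2 and 5 in null liver, against 6.4 and 16.9 in control liver, the last alone above the floor. Hsbp1, which binds and restrains Hsf1, was at 0.34 ± 0.16 (log2, SE, adjusted p = 0.447 in limma).

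Chaperones of other kinds gave 0 calls in limma as well. Beside the counts at an unadjusted p under 0.05 that follow, 12.6% of all tested probe sets lay under it in limma, in either direction. Among 11 subunits of the cytosolic chaperonin TRiC and of prefoldin the median was 0.02, with 6 positive and 5 negative differences and 1 gene at an unadjusted p under 0.05, the dim prefoldin subunit Pfdn5 (-1.09 ± 0.42). Cct5, a TRiC subunit, was at -0.22 ± 0.13. Among 7 mitochondrial chaperones the median was -0.02 (1, a lower one, at an unadjusted p under 0.05), and Hspd1 (HSP60), also a heat shock target, was at -0.38 ± 0.11, with 1178.9 and 1308.1 in null liver, against 1738.3 and 1505.6 in control liver. A dim second probe set of Hspd1 was at 0.08 ± 0.65. Its partner Hspe1 (HSP10) was at 0.17 ± 0.11, and mitochondrial HSP70 (Hspa9) at -0.11 ± 0.11. In the endoplasmic reticulum 10 chaperones had a median of 0.11, with 7 positive and 3 negative differences (2, both higher, at an unadjusted p under 0.05). The resident HSP70, Hspa5, was at 0.50 ± 0.10 (log2, SE, adjusted p = 0.0969 in limma) and its J protein Dnajb11 at 0.40 ± 0.14. Dnajc3, a further J protein of this list, was at -0.27 ± 0.13 on its brightest probe set and at 0.16 and -0.39 on its other tested ones. Over 10 other classical heat shock targets, which share genes with the lists above, the median was 0.08, 8 were positive, and at an unadjusted p under 0.05 there were 2 higher and 1 lower. Hmox1, haem oxygenase, was at 0.56 ± 0.18 and Serpinh1, the collagen chaperone HSP47, at 0.51 ± 0.30.

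Genes whose pattern over the 4 arrays was closest to that of Hspa1b were sought among 6507 tested probe sets with 1 gene name. The measure was the Euclidean distance between floored log2 signals, each centred on its own mean. The nearest was Sycn (distance 0.39), which encodes syncollin, a protein of pancreatic zymogen granules. Its signals were 67 and 18.6 on null replicates 7 and 8, against 8.6 and 24.7 on control replicates 7 and 8. The kinesin gene Kif23 (0.41), the folate receptor gene Folr1 (0.43) and Impdh1 of purine synthesis (0.53) followed, each with control replicate 7 below the floor. Egr1 was the fifth (0.58). Without null replicate 7 the mean log2 signals of Sycn, Kif23, Folr1 and Impdh1 would lie below the limit for testing. Ranked among the same probe sets, Hspa1a would stand at position 15 and Dnajb1 at 24, Hsph1 at 273, Hspa8 at 546 and Hsp90aa1 at 3329. The distances describe these 4 arrays alone.

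In bulk liver, fewer cells of a type and less RNA per cell cannot be told apart. Hepatocyte markers were bright on every array, with summed signals of 44931.7 and 42575.6 for 9 measured genes in null liver, against 46281.3 and 46534.1 in control liver. The 13 macrophage and Kupffer cell markers summed to 3127 and 3410.8 in null liver, against 2527.1 and 2524.9 in control liver. The 10 stellate cell and fibroblast markers summed to 1577.6 and 1850.7, against 1215.2 and 1265. Not every marker followed its sum. Clec4f (389.2 and 374.7, against 395.6 and 375) and Mrc1 (69.6 and 76.4, against 73.5 and 91.2) overlapped between genotypes, as did Csf1r and Cd68. Dcn gave most of the stellate sum, at 1029.2 and 1183.5, against 838.4 and 843.9. Des (35.2 and 16.3) and Pdgfrb (30.3 and 10.3) of that list were more than 2-fold higher on null replicate 7 than on null replicate 8. The macrophage and stellate sums were both higher on the null arrays, as were the signals of Hsph1, Hspa1a and Hspa1b. Unlike those genes, both sums had null replicate 8 above null replicate 7. The sum of the 9 neutrophil markers had that order too, at 118.8 and 172.5, against 110.8 and 97.8. Of these markers 4 were bright enough to be tested, and Ngp was below the floor on every array. Single neutrophil markers went both ways between null replicates 7 and 8, as S100a9 with 9 and 36.1 and Ly6g with 31.2 and 25.9. The 7 endothelial markers summed to 1069.1 and 997, against 885.8 and 884.3, and the 5 T and NK cell markers, of which Cd3d was below the floor on every array, to 77.5 and 53.2, against 31 and 47.3. The sums of these last lists were also higher on both null arrays, with null replicate 7 above null replicate 8. Hspa1a and Hspa1b had that order, and Hsph1 had it by little (239 and 235.4). Of the 5 T and NK cell markers only 1 was bright enough to be tested. Eng gave most of the endothelial sum, with 762.7 and 704.9, against 618.5 and 629.1. Tek, another endothelial marker, was lower on both null arrays, at 30.9 and 32.8, against 40.5 and 37.3. The part of these cells in the chaperone signals was not tested. Markers of smooth muscle and mesothelium summed to 198 and 202.7, against 112.9 and 201.8, with Msln below the floor on every array. The erythroid sum was lower on both null arrays, at 6118.8 and 5824.3, against 7639.8 and 7237.2. The B and plasma cell sum (183.2 and 233.4, against 197 and 180.7) overlapped between genotypes. So did the cholangiocyte sum (24.3 and 50.2, against 17.3 and 37.7), of whose markers none was bright enough to be tested.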

How the data were processed

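Per the labels, the authors extracted total RNA from liver, hybridised labelled cRNA to MG_U74Av2 arrays and computed the deposited intensity of each probe set with GCOS software, scaled to total chip fluorescence, on a linear scale. The labels give no software version. The median signal was 26.1 to 28.4 per array, and the number of arrays limits the precision.

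Signals were floored at 7.1 (25th percentile of all signals pooled), converted to log2 and not normalised again. Probe sets with a mean log2 above log2 of 16.8 (40th percentile) were tested, 7241 of 12488, with 66 manufacturer's controls left out. Null was compared with control by limma 3.58.1 in R 4.3.3 (lmFit and eBayes with intensity trend, two-sided), with Benjamini-Hochberg adjustment over all 7241 and a threshold of 0.05. Intervals use 2 residual and 4.78 prior degrees of freedom. With 2 arrays per genotype the smallest two-sided p of an exact permutation test is 0.333, so none was run. The null arrays were compared without a test, calling differences above 2-fold.

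Names came from the platform's probe table, updated through gene identifiers to GRCm38.p6: 10833 probe sets carried 1 gene, 396 several and 1193 are unnamed here. Companion genes with several probe sets are represented by the brightest tested. Named genes were all members, every measured heat shock factor, up to 4 of smallest p per companion list, and the 5 nearest to Hspa1b. Other genes (Fos, Ctrb1, Bag3, Hspa4, Chordc1 and Sugt1) were named after their values were seen. So were the markers Cd3d, Msln, Ngp, S100a9, Ly6g, Eng, Tek, Clec4f, Mrc1, Csf1r, Cd68, Dcn, Des and Pdgfrb. Promoters are from RefSeq (GRCm38.p6). Members and lists were chosen with earlier results of these data known. The steps were tested on simulated data.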

Additional observations from a re-analysis of the deposited data

How the results depend on the processing

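No member passed under any alternative run (other floors, an offset, other filters, quantile normalization, median centring, no intensity trend, robust variances, a replicate block, or 1 array left out), and with all 4 arrays 1 to 3 had a higher signal at an unadjusted p under 0.05. Hspa1a was too dim to be tested with the filter at the 60th percentile. Of 83 recomputed member differences 2 changed sign. With 1 array left out the log2 difference of Dnajb1 ran from -0.16 (without null replicate 7) to 1.87 and that of Hspa8 from -0.088 (without control replicate 7) to 0.44; neither had passed, and the cause was not tested. The 2 members past 2-fold between the null arrays did not change in number under any floor, offset or normalization run. Counts over all probe sets moved more. The 22 higher and 6 lower probe sets became 0 and 1 when the floor was the 50th percentile, and 0 and 0 with no filter or without the intensity trend, where limma's unadjusted p was under 0.05 for 408 higher and 484 lower, 566 and 642, and 407 and 340. Lower probe sets numbered 15 with a filter at the 60th percentile, 12 after quantile normalization and 13 with robust variances. With 1 array left out, 10 to 13 were higher and 0 to 4 lower. With the replicate number as a replicate block there were 37 higher and 15 lower. The log2 difference of replicate 7 over replicate 8 in null liver was set against that in control liver. Their correlation over tested probe sets was -0.03. Whether same-numbered arrays share more than a number was not tested. Signals near the floor are mostly background, which limits what can be said of Hspb1, Hsf2 and Hsf4.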
